A study of Homo sapiens with 20 samples.

Results

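The genes described here are 8 genes of cholesterol (sterol) synthesis and its control, HMGCS1, IDI1, FDFT1, SQLE, LSS, DHCR7, SREBF2 and INSIG1. They were taken by symbol from a table of 18305 genes, and all 8 were among the 13089 genes tested. The set was put together as synthesis and uptake genes, but none of the 8 encodes an uptake receptor: 6 are enzymes of the synthesis route and 2 control it. Expression was read by RNA sequencing in 20 libraries, 2 replicates in each of 10 groups of cultured lines. AMO1, L363 and RPMI-8226 are multiple myeloma lines, and ARH-77 is a B-lymphoblastoid line. WT cells of each line grew without drug. BtzR cells of each line grew in the proteasome inhibitor bortezomib at 90 nM, and CfzR cells, labelled AMO1 and L363, grew in carfilzomib, another proteasome inhibitor, at 90 nM. All groups shared RPMI-1640 medium with fetal bovine serum, a source of lipoprotein cholesterol. Each resistant population is 1 line evolved in culture and kept in the drug, so resistance and the presence of the drug cannot be told apart. The study's methods call the 2 replicates biological without saying how they were separated. The p-values measure the spread between replicate libraries, pooled over all 10 groups, and not that between separately evolved populations. In bulk RNA, fewer expressing cells and less RNA per cell cannot be told apart either.

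Values are FPKM, fragments scaled for transcript length and for the mapped fragments of the library, and the read depth behind them is unknown. Summed FPKM ran from 457317 to 494850 per library, and 10455 to 11023 genes reached 1 FPKM. The libraries labelled AMO1 CfzR stood apart from their label: over all tested genes their log2 values correlated at 0.986 to 0.992 with L363 libraries and at 0.878 to 0.883 with the other AMO1 libraries. They are therefore set against both AMO1 WT and L363 WT below. All 7 plasma cell markers reached 1 FPKM in both libraries of every AMO1 and L363 group, and 6 of 7 did in the RPMI-8226 and ARH-77 groups. The 6 B cell markers summed to 475 to 704 FPKM in ARH-77 and to 1.1 to 14.1 FPKM in the myeloma groups, where at most 1 of 6 reached 1 FPKM.

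Cells make cholesterol from acetyl-CoA through mevalonate, isoprenoid units, squalene and lanosterol. The transcription factor SREBP2, encoded by SREBF2, drives these genes when membrane sterol is low. INSIG proteins hold the SREBP2 escort protein SCAP in the endoplasmic reticulum when sterol is high, and INSIG1 is itself a target of SREBP. In B cells that become plasma cells, membrane lipid supply serves an enlarged endoplasmic reticulum.

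The promoters of 3 members are shown because these members gave the largest contrasts (HMGCS1, INSIG1) or encode the pathway's own transcription factor (SREBF2). Promoter entries, 250 bases before to 50 bases after the start, were matched for 6 of 8 members in RefSeq (GRCh38.p14); FDFT1 and SQLE had none. Capitals mark the letters TCACNCCAC, a form of the sterol regulatory element, and CCAAT boxes, both searched on both strands (a CCAAT box on the other strand reads ATTGG). The windows lie at chr5:43313363-43313662 on the minus strand for HMGCS1, chr22:41832855-41833154 on the plus strand for SREBF2 and chr7:155297628-155297927 on the plus strand for INSIG1, and each is written 5′ to 3′ along the gene.
HMGCS1: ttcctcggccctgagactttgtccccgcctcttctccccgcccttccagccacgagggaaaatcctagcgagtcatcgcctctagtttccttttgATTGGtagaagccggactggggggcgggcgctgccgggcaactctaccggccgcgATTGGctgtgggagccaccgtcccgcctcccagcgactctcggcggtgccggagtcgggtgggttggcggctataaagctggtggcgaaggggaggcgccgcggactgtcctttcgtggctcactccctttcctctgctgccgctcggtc
SREBF2: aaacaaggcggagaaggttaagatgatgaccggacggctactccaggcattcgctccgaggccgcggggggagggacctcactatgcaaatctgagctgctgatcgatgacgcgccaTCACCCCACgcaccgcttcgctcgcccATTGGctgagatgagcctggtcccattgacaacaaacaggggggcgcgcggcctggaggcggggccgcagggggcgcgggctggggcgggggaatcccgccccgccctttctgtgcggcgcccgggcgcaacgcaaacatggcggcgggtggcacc
INSIG1: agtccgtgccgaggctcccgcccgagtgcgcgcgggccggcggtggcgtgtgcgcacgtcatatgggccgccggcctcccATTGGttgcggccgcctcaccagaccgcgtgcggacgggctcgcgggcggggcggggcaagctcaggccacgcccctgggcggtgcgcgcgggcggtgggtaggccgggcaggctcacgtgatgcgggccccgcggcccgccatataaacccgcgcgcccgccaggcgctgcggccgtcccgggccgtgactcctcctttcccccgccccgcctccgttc
The SREBF2 window held TCACCCCAC 133 bases before the start, with a CCAAT box 106 bases before it. HMGCS1 held 2 CCAAT boxes, 155 and 100 bases before its start, and INSIG1 held 1, 170 bases before its start. Over 27305 promoters of this length, TCACNCCAC was in 1.15%, a CCAAT box in 35.7% and a GC box (GGGCGG, either strand) in 44.6%. Among the 6 matched members the respective counts were 1, 5 and 6. A match describes letters in these windows and says nothing of binding.

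The members differed most in how far their levels moved between groups, as the plot of FPKM by group shows. HMGCS1, which makes HMG-CoA ahead of mevalonate, had the widest span, from a mean of 20.4 FPKM in L363 WT to 188 FPKM in AMO1 BtzR, a 9.21-fold range. That span was wider than those of 88% of tested genes. INSIG1 spanned 5.81-fold, from 59 FPKM in L363 BtzR to 343 FPKM in RPMI-8226 WT. FDFT1, squalene synthase, spanned 5.47-fold, from 62.6 FPKM in L363 BtzR to 343 FPKM in ARH-77 WT. At the other end SREBF2 spanned 1.55-fold, from 60.5 FPKM in AMO1 WT to 93.6 FPKM in RPMI-8226 BtzR, and 6.15% of tested genes had a smaller span. LSS, lanosterol synthase, spanned 1.78-fold, from 29 FPKM in ARH-77 BtzR to 51.6 FPKM in L363 CfzR. SQLE, squalene epoxidase, spanned 2.21-fold, IDI1, which isomerises the isoprenoid unit, 2.5-fold, and DHCR7, the last reductase of the route, 2.77-fold. The gene for the transcription factor was thus among the least variable of the 8, and the first enzyme listed among the most.

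**Figure D1:**
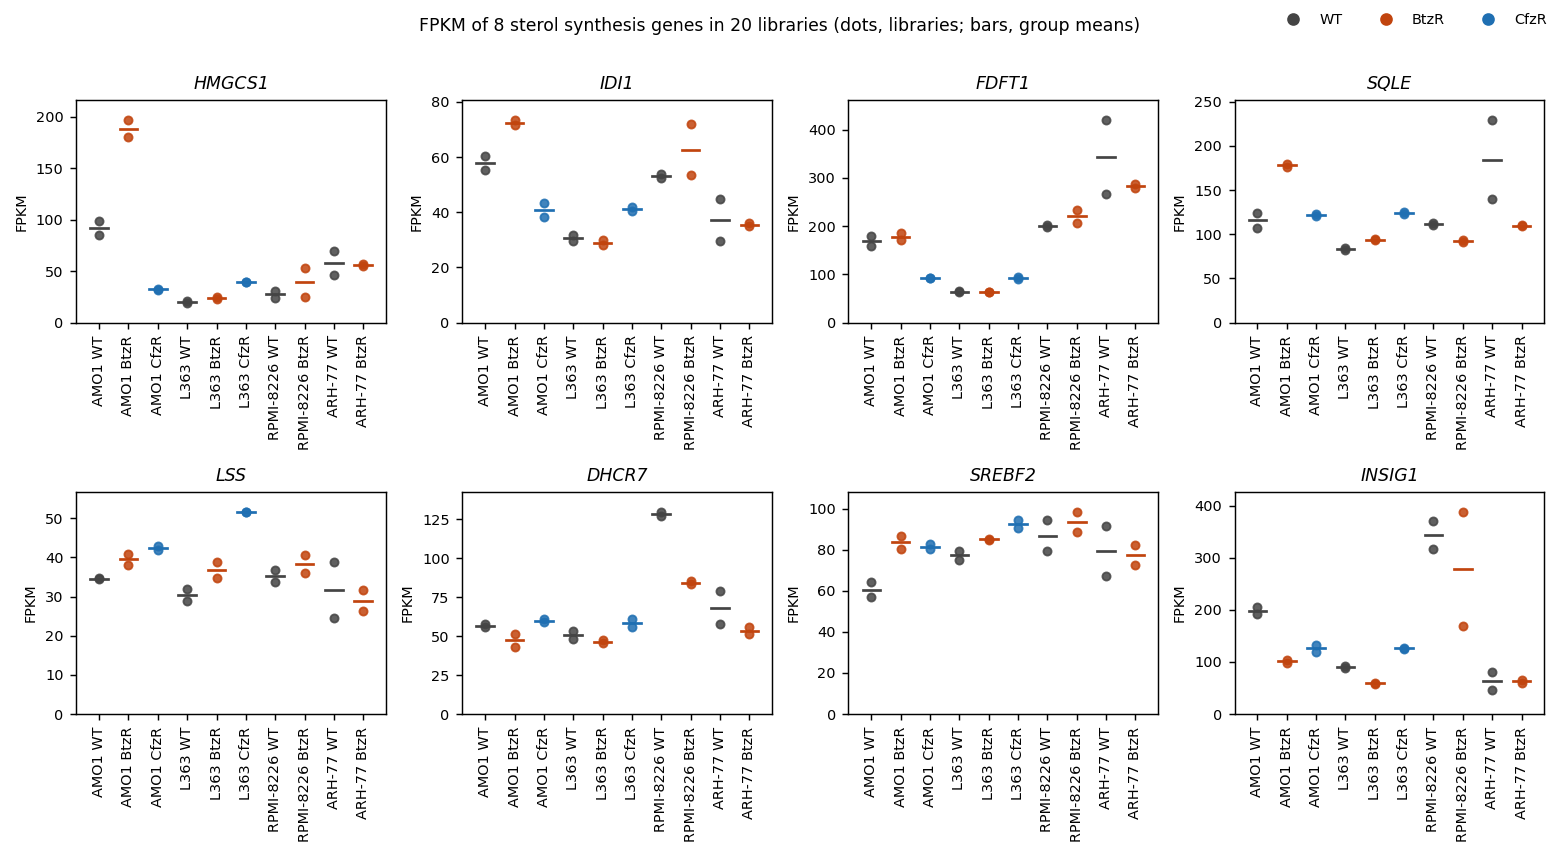
FPKM (vertical axis, linear from 0, its own scale in each panel) of the 8 genes in the 10 groups; dots are libraries, horizontal bars are group means, and colours mark WT, BtzR and CfzR cells. HMGCS1 stands highest in AMO1 BtzR (180.27 and 196.35 FPKM), while SREBF2 stays between 56.95 and 98.41 FPKM in all 20 libraries.

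Ordering the groups by level separated few neighbours. For HMGCS1 the order was AMO1 BtzR, AMO1 WT, ARH-77 WT, ARH-77 BtzR, L363 CfzR, RPMI-8226 BtzR, AMO1 CfzR, RPMI-8226 WT, L363 BtzR and L363 WT, and 2 of the 9 neighbouring pairs passed the test (adjusted p under 0.05 in limma), both at the top. For FDFT1 the ARH-77 and RPMI-8226 groups led, AMO1 BtzR and AMO1 WT followed, and the libraries labelled AMO1 CfzR and the L363 groups came last, with 3 of 9 neighbours passing. In DHCR7, RPMI-8226 WT led RPMI-8226 BtzR, which led ARH-77 WT, and both steps passed; the other 7 did not. SQLE and SREBF2 had 1 passing step each, between AMO1 BtzR and L363 CfzR for SQLE and between L363 WT and AMO1 WT for SREBF2. No neighbouring step passed for IDI1, LSS or INSIG1. Over all 45 pairs of groups, 37 passed for FDFT1, 30 for HMGCS1, 29 for INSIG1, 24 for IDI1, 23 each for SQLE and DHCR7, 11 for LSS and 9 for SREBF2. The share of all tested genes over these pairs was not computed. Among pairs with a known share it ran from 4.97% (AMO1 CfzR against L363 CfzR) to 70.8% (RPMI-8226 WT against ARH-77 WT). The counts of neighbours and pairs are therefore not read as a trait of the members.

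The 8 genes did not share 1 profile over the groups. Over the 10 group means of log2(FPKM + 1), Pearson's r was highest between DHCR7 and INSIG1 (0.754) and between HMGCS1 and SQLE (0.732). The lowest values were -0.386 between FDFT1 and LSS and -0.34 between HMGCS1 and SREBF2. These are descriptions over 10 points that share lines and libraries.

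In AMO1, bortezomib resistance went with more HMGCS1, SQLE and SREBF2 RNA and less INSIG1 RNA. HMGCS1 read 85.24 and 98.82 FPKM in the WT libraries and 180.27 and 196.35 FPKM in the BtzR libraries. Both resistant libraries lay well above both WT libraries, and the mean rose 2.05-fold, a log2-fold change of 1.03 ± 0.25 (SE, n = 2 against 2; limma adjusted p = 0.00291). INSIG1, the sterol-sensing brake on SREBP processing, read 204.63 and 191.97 FPKM in WT and 97.76 and 104.09 FPKM in BtzR. The groups did not overlap, and INSIG1 fell by 0.97 ± 0.28 on the log2 scale (limma adjusted p = 0.0107).

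SQLE, a rate-controlling oxygenase of the later route, read 124.60 and 107.63 FPKM in AMO1 WT and 176.26 and 179.88 FPKM in AMO1 BtzR, again without overlap (log2-fold change 0.62 ± 0.15, limma adjusted p = 0.00306). SREBF2 read 56.95 and 64.07 FPKM in WT, the lowest pair of the series, and 80.56 and 86.81 FPKM in BtzR (log2-fold change 0.46 ± 0.12, limma adjusted p = 0.00614). The remaining enzymes did not pass: the log2-fold changes were 0.32 for IDI1, 0.19 for LSS, 0.08 for FDFT1 and -0.27 for DHCR7. FDFT1 overlapped between the groups, at 158.59 and 179.45 FPKM in WT and 171.37 and 184.98 FPKM in BtzR. Thus 4 of 8 members passed, 3 higher and 1 lower, where 51.2% of all tested genes passed in either direction (25.6% higher and 25.6% lower), so the count is near the background. HMGCS1 alone also passed a log2-fold change of 1, as 4.61% of tested genes did upward. The SREBF2 call was lost without WT replicate 1 (adjusted p = 0.0611) or BtzR replicate 2 (0.0504), and the INSIG1 call without WT replicate 1 (0.0565) or BtzR replicate 1 (0.058). Without WT replicate 1 the count fell to 2. The 7 plasma cell markers, all at 1 FPKM or more in these libraries, summed to 3360 to 3690 FPKM in AMO1 WT and 1710 to 1850 FPKM in AMO1 BtzR. The marker SDC1 was lower in BtzR, at 3265.9 and 2883.13 FPKM in WT and 1276.12 and 1355.96 FPKM in BtzR, while the other 6 summed to 421 and 477 FPKM in WT and 431 and 498 FPKM in BtzR. Of 2 T cell markers CD3D was at 0 in both groups, and CD3E read 6.73 and 10.66 FPKM in WT and 0.73 and 1.07 FPKM in BtzR. The part of these markers in the result was not tested.

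**Figure D2:**
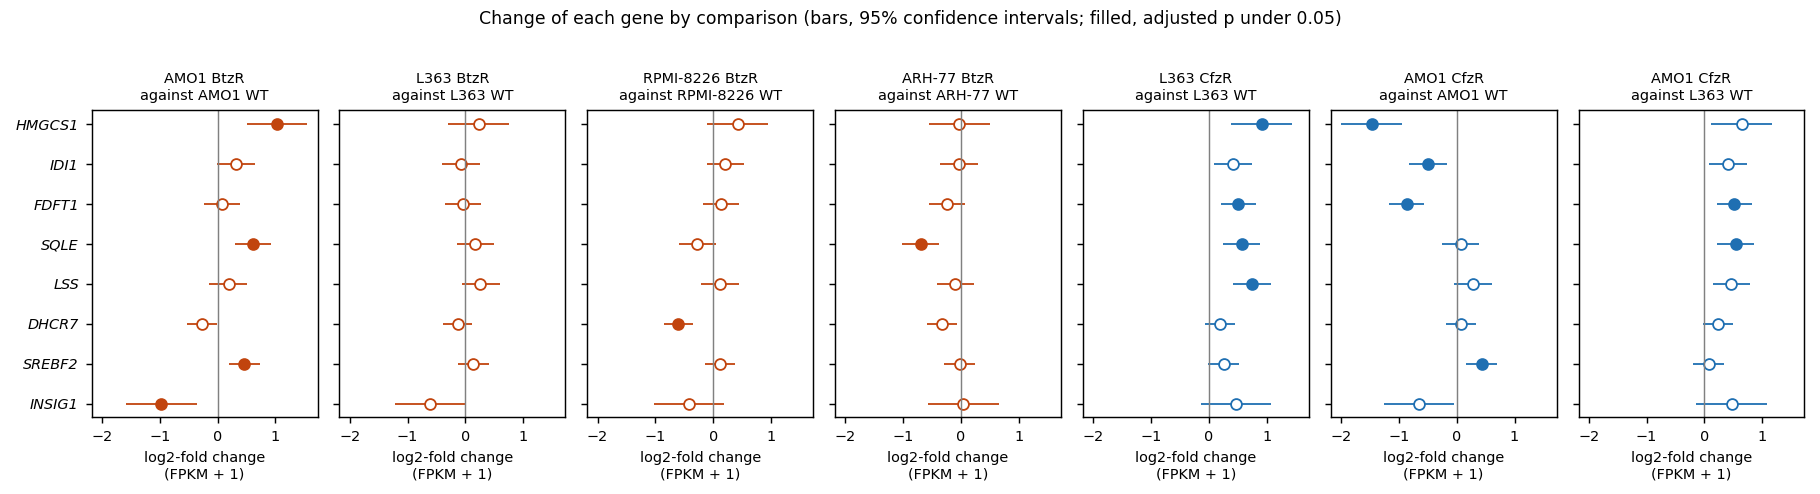
Log2-fold change of FPKM + 1 (horizontal axis) of each gene in 7 comparisons; dots are estimates from 2 against 2 libraries, bars 95% confidence intervals, and filled dots passed an adjusted p of 0.05. HMGCS1 stands at 1.03 in AMO1 BtzR and 0.92 in L363 CfzR, all 8 estimates lie right of 0 for L363 CfzR, and 0 of 8 dots are filled for L363 BtzR.

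In L363, carfilzomib resistance went with higher levels of 4 enzymes, and bortezomib resistance with no member past the test. LSS, which closes squalene epoxide into lanosterol, read 29 and 31.91 FPKM in L363 WT, 38.93 and 34.68 FPKM in BtzR and 51.52 and 51.64 FPKM in CfzR. The CfzR pair was the highest of the series, and LSS rose by 0.74 ± 0.15 against WT (limma adjusted p = 0.00523). HMGCS1 read 19.42 and 21.47 FPKM in WT, 23.12 and 25.21 FPKM in BtzR and 39.17 and 39.74 FPKM in CfzR. The CfzR libraries were above all others of this line, 1.93-fold over WT (log2-fold change 0.92 ± 0.25, limma adjusted p = 0.0305).

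The pair of squalene enzymes moved less. FDFT1 read 64.15 and 64.66 FPKM in L363 WT, 62.59 and 62.67 FPKM in BtzR and 93.71 and 91.09 FPKM in CfzR, so WT and BtzR sat together and CfzR above them (log2-fold change over WT 0.51 ± 0.14, limma adjusted p = 0.0371). SQLE read 82.45 and 84.32 FPKM in WT, 93.43 and 94.10 FPKM in BtzR and 123.08 and 125.36 FPKM in CfzR (log2-fold change over WT 0.57 ± 0.15, limma adjusted p = 0.026). IDI1 at 0.42, INSIG1 at 0.47, SREBF2 at 0.26 and DHCR7 at 0.19 did not pass. So 4 of 8 members passed and were higher in CfzR, against 8.47% of tested genes in either direction and 4.88% upward. The median change of the 8 was 0.49, with all 8 above 0, where the median of all tested genes was 0 and 46.3% lay above 0. These calls were not stable: without L363 WT replicate 1 no member passed in limma, and without WT replicate 2, CfzR replicate 1 or CfzR replicate 2 in turn 1 passed, LSS, with log2-fold changes of the 4 genes between 0.49 and 0.99 throughout. FDFT1 also lost its call in 10 of the 16 fits without a library of another group, at an adjusted p of up to 0.0563.

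L363 BtzR gave 0 of 8 members past the limma test, where 11.2% of tested genes passed. At an unadjusted p under 0.05, for which the share of tested genes is not given, 1 of 8 members passed. That gene was INSIG1, at 88.29 and 93.02 FPKM in WT and 59.41 and 58.61 FPKM in BtzR, a log2-fold change of -0.61 (95% interval -1.22 to 0, adjusted p = 0.211). With the 4 L363 libraries fitted alone INSIG1 passed (adjusted p = 0.00221), as did SQLE (0.0452). Set directly against BtzR cells, L363 CfzR cells had more INSIG1 (124.61 and 127.74 FPKM, log2-fold change 1.08 ± 0.28, limma adjusted p = 0.0334) and more FDFT1 (0.55 ± 0.14, adjusted p = 0.03), 2 of 8 members, where 6.13% of tested genes passed and 3.27% were higher. Both calls were lost without each of these 4 libraries in turn, at adjusted p of 0.147 to 0.182 for INSIG1 and 0.121 to 0.17 for FDFT1, with log2-fold changes of 1.07 to 1.1 and 0.53 to 0.57. The INSIG1 call was also lost without AMO1 BtzR replicate 2 or either RPMI-8226 WT replicate, at adjusted p of 0.0509 to 0.0531. INSIG1 lay below WT in the BtzR libraries and above it in the CfzR libraries, and neither difference from WT passed. The L363 comparisons share their WT libraries.

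The libraries labelled AMO1 CfzR gave opposite signs for some members by the reference used. Against AMO1 WT, HMGCS1 (32.13 and 32.91 FPKM) fell by 1.47 ± 0.25 on the log2 scale (limma adjusted p = 1.3e-04), FDFT1 (92.62 and 92.24 FPKM) fell by 0.86 ± 0.14 (adjusted p = 1.1e-04), IDI1 (43.39 and 38.39 FPKM) fell by 0.49 ± 0.15 (adjusted p = 0.0129) and SREBF2 (80.43 and 82.58 FPKM) rose by 0.43 ± 0.12 (adjusted p = 0.00869). This made 4 of 8 members, 3 lower and 1 higher, where 57.7% of tested genes passed, 30.9% lower and 26.8% higher. The IDI1 and SREBF2 calls did not survive leaving out AMO1 WT replicate 1 (2 members then passed), nor did that of IDI1 without CfzR replicate 2.

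Against L363 WT the same libraries were higher for FDFT1 (0.51 ± 0.14, limma adjusted p = 0.0433) and SQLE (120.30 and 122.36 FPKM, 0.54 ± 0.15, adjusted p = 0.0435), 2 of 8 members, both higher, where 6.92% of tested genes passed and 3.52% were higher. HMGCS1 was then 0.65 above L363 WT (adjusted p = 0.171), the reverse of its sign against AMO1 WT. Both calls rested on the margin: they were lost in 16 of 20 fits without 1 library for FDFT1 and in 18 of 20 for SQLE, while with only the 4 compared libraries 6 of 8 members passed. Compared with L363 CfzR, 0 of 8 members passed, where 4.97% of tested genes did at an adjusted p under 0.05. No member reached an unadjusted p under 0.05 either, a level for which the share of tested genes is not given. The differences ran from -0.28 for LSS (95% interval -0.61 to 0.05) to 0.04 for DHCR7 (-0.21 to 0.3), and for FDFT1 the means were 92.4 FPKM in both groups. These comparisons share libraries with those above, so the repeated pattern is not a separate observation.

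In RPMI-8226, DHCR7 fell with bortezomib resistance and no other member passed. DHCR7, whose loss causes 7-dehydrocholesterol to build up, read 129.56 and 126.92 FPKM in WT, the highest of any group, and 83.25 and 85.28 FPKM in BtzR. The log2-fold change was -0.60 ± 0.12 (limma adjusted p = 5.9e-04), and it stayed between -0.62 and -0.58 without each library in turn. That was 1 of 8 members, and it was lower, where 54.3% of tested genes passed and 24.2% were lower. FDFT1 read 198.86 and 202.10 FPKM in WT and 206.94 and 232.82 FPKM in BtzR, and SQLE 112.88 and 110.78 FPKM against 93.33 and 91.11 FPKM. Neither passed, at log2-fold changes of 0.13 and -0.28. Plasma cell markers moved both ways in group mean. From WT to BtzR, TNFRSF17 went from 96.06 to 6.39 FPKM, CD38 from 51.16 to 2.72, SDC1 from 55.58 to 53.04 and SLAMF7 from 0.78 to 0.34. XBP1 went from 247.06 to 334.32 FPKM, IRF4 from 63.39 to 100.26 and PRDM1 from 12 to 18.63. The part of these markers in the result was not tested.

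HMGCS1 and INSIG1 split the RPMI-8226 BtzR replicates. HMGCS1 read 25.32 and 53.31 FPKM in the 2 BtzR libraries and 24.39 and 30.53 FPKM in WT, and INSIG1 read 168.15 and 387.95 FPKM in BtzR and 369.84 and 316.13 FPKM in WT. For HMGCS1, BtzR replicate 1 lay between the WT libraries and replicate 2 above them; for INSIG1, replicate 1 lay below both and replicate 2 above both. Their replicate differences, 1.05 and 1.2 on the log2(FPKM + 1) scale, were larger than those of 99.1% and 99.4% of tested genes in that group. Without BtzR replicate 1, HMGCS1 was 0.94 above WT (limma adjusted p = 0.001) and INSIG1 0.18 above; without BtzR replicate 2, HMGCS1 was -0.10 from WT and INSIG1 -1.02 (adjusted p = 0.00178). With both, neither passed (0.42, adjusted p = 0.169, and -0.42, adjusted p = 0.234).

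In ARH-77, SQLE was lower in BtzR cells. SQLE read 139.80 and 228.74 FPKM in WT and 109.34 and 110.48 FPKM in BtzR. Both WT libraries lay above both BtzR libraries, by very different amounts, and the log2-fold change was -0.70 ± 0.15 (limma adjusted p = 0.00549). That was 1 of 8 members, lower in BtzR, where 13.6% of tested genes passed and 7.6% were lower. FDFT1 read 266.71 and 418.79 FPKM in WT and 287.09 and 278.54 FPKM in BtzR, so the WT pair enclosed the BtzR pair. With only the 4 ARH-77 libraries fitted the adjusted p of SQLE was 0.317, and the change was -1.05 without WT replicate 1 and -0.34 without WT replicate 2. All 6 B cell markers reached 1 FPKM in both groups, and they summed to 475 to 564 FPKM in WT and 618 to 704 FPKM in BtzR; their part in the result was not tested.

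All 8 genes lay higher in the same ARH-77 WT replicate. Replicate 2 was above replicate 1 for all 8, by 0.44 to 0.8 on the log2(FPKM + 1) scale (median 0.62), where 57.6% of tested genes were higher in replicate 2 and the median difference was 0.054. Of the other 41 tested genes of the sterol and fatty acid lists below, 34 were higher in replicate 2 as well, with a median difference of 0.28. Without replicate 1, FDFT1, LSS and DHCR7 passed together with SQLE, all 4 lower in BtzR, and without replicate 2 SQLE alone passed. The plot of replicate differences sets these values beside those of the other groups, in which the members' median difference lay between -0.01 and 0.17. All 8 were also higher in replicate 2 in AMO1 BtzR, by 0.03 to 0.26, and in L363 WT, by 0.01 to 0.14, where 44% and 53% of tested genes were.

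**Figure D3:**
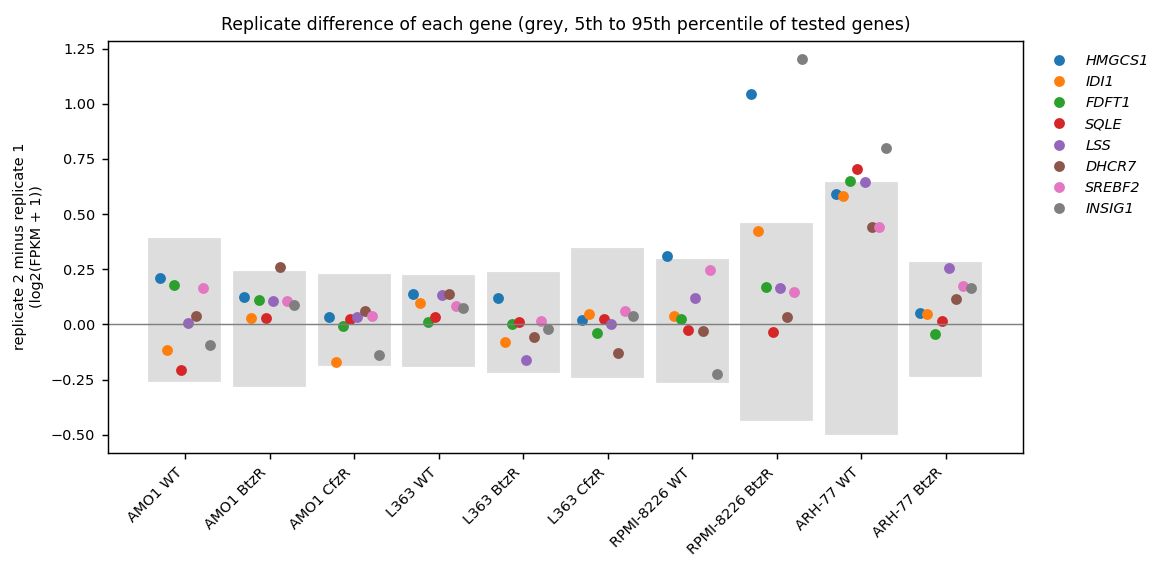
Replicate 2 minus replicate 1 of log2(FPKM + 1) (vertical axis) for each of the 8 genes in the 10 groups; grey bands span the 5th to 95th percentile of all tested genes. All 8 dots lie above 0 in ARH-77 WT, from 0.44 to 0.8, and HMGCS1 (1.05) and INSIG1 (1.2) stand far above the band in RPMI-8226 BtzR.

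Averaged over the 4 lines, the bortezomib effect passed for 4 of 8 members, 2 higher and 2 lower, where 52.3% of tested genes passed, 25.5% higher and 26.8% lower. HMGCS1 was 0.41 ± 0.12 higher (limma adjusted p = 0.0114) and SREBF2 0.17 higher (adjusted p = 0.0304), while INSIG1 fell by 0.49 ± 0.14 (adjusted p = 0.00978) and DHCR7 fell by 0.33 (adjusted p = 3.0e-04). These p-values measure the pooled spread between replicates, not the spread of the effect between the 4 lines. The estimates were unequal between lines. None of these 4 genes passed the moderated F test of a difference between lines, at limma adjusted p of 0.0678 to 0.164. The HMGCS1 change was 1.03 in AMO1, with 0.23 in L363, 0.42 in the RPMI-8226 line and -0.03 in ARH-77, and that of DHCR7 was -0.27, -0.13, -0.60 and -0.33 in the same order. SREBF2 lost its call in 9 of the 20 fits that left out 1 library.

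SQLE was the member whose bortezomib effect differed between lines by the moderated F test (limma adjusted p = 4.1e-04), 1 of 8, where 71.1% of tested genes passed. Its change ran from 0.62 in AMO1 over 0.17 in L363 to -0.28 in RPMI-8226 and -0.70 in ARH-77. By pairs, AMO1 differed from RPMI-8226 by 0.89 (adjusted p = 0.0024; 54.7% of tested genes passed) and from ARH-77 by 1.31 (adjusted p = 2.2e-04; 40.4%), and L363 differed from ARH-77 by 0.86 (adjusted p = 0.0124; 14.6%). HMGCS1 (1.05, adjusted p = 0.0261) and SREBF2 (0.48, adjusted p = 0.0403) also differed between AMO1 and ARH-77, and DHCR7 between L363 and RPMI-8226 (0.47, adjusted p = 0.0365; 42.8%), although their F tests over all lines did not pass. With the replicate block the F test passed for HMGCS1 (adjusted p = 0.0186) and SREBF2 (adjusted p = 0.0184) as well, 3 members in all. Without RPMI-8226 BtzR replicate 1 or 2, or ARH-77 WT replicate 1 or 2, the number of members past the F test also moved by more than 1.5 times, to as many as 7.

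Among cells without drug, the mean of the myeloma lines was higher than ARH-77 for INSIG1 and lower for FDFT1, SQLE and HMGCS1. Averaged over AMO1, L363 and RPMI-8226 WT, INSIG1 was at 211 FPKM against 63.2 FPKM in ARH-77 WT (log2-fold change 1.58 ± 0.23, limma adjusted p = 2.2e-05). FDFT1 was at 145 against 343 FPKM (-1.36 ± 0.12, adjusted p = 6.6e-08) and SQLE at 104 against 184 FPKM (-0.80, adjusted p = 3.1e-05). HMGCS1 (-0.60, adjusted p = 0.0154) and IDI1 (0.31, adjusted p = 0.0367) passed too, 5 of 8 members, 2 higher and 3 lower, where 73.1% of tested genes passed, 34.2% higher and 38.9% lower. The ARH-77 WT replicates these values rest on differed by 0.44 to 0.8 for the 8 members. Without ARH-77 WT replicate 1 IDI1 was 0.019 (adjusted p = 0.891). Without replicate 2 HMGCS1 was -0.301 (adjusted p = 0.287) and SQLE -0.443, which still passed. IDI1 also lost its call in 4 fits without 1 WT myeloma library, AMO1 WT replicate 1, L363 WT replicate 2 or either RPMI-8226 WT replicate, while INSIG1 (1.18 to 1.98) and FDFT1 (-1.68 to -1.03) passed in all 20 fits without 1 library. The IDI1 call was lost too without a filter (adjusted p = 0.0557), with TPM scaling (0.0839) and with the compared libraries alone (0.0862). The myeloma lines were not alike: HMGCS1 in AMO1 WT was 0.68 above ARH-77 WT on the log2 scale (adjusted p = 0.024; 67.1% of tested genes passed), against the sign of the mean. IDI1 in L363 WT was at -0.25 from ARH-77 WT (adjusted p = 0.168; 67% of tested genes passed), also against it, and INSIG1 in L363 WT did not pass against ARH-77 WT (0.57, adjusted p = 0.0917). HMGCS1 was 4.5-fold higher in AMO1 WT (92 FPKM) than in L363 WT (20.4 FPKM), a log2 difference of 2.11 (adjusted p = 3.6e-06; 57.2% of tested genes passed). B cell markers were at 475 to 564 FPKM in sum in ARH-77 WT, and their part in these differences was not tested.

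The other genes of sterol and fatty acid metabolism were followed in 6 lists of 42 genes besides the members, of which 41 could be tested; CH25H stayed under the filter. In AMO1 BtzR 11 were higher and 13 lower, and in RPMI-8226 BtzR 11 were higher and 12 lower, counts to be read beside the 51.2% and 54.3% of all tested genes that passed. The AMO1 count included 3 of 5 other mevalonate-step genes higher and 6 of 8 fatty acid targets of SREBP lower, where 25.6% of all tested genes were higher and 25.6% lower. The export pump genes ABCA1 (5.25 and 4.91 FPKM against 0.56 and 0.29 FPKM in WT, log2-fold change 2.10, limma adjusted p = 1.6e-08) and ABCG1 (1.17, adjusted p = 3.8e-05) rose in AMO1 BtzR. FADS2, a desaturase of polyunsaturated fatty acids, fell by 1.47 in AMO1 BtzR (adjusted p = 1.1e-06) and by 1.80 in RPMI-8226 BtzR (adjusted p = 6.7e-08).

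In L363 CfzR, 12 of the 41 were higher and 1 lower, where 4.88% of all tested genes were higher. Of its 8 fatty acid targets 6 were higher, among them the fatty acid synthase FASN (163.59 and 122.81 FPKM against 49.63 and 56.75 FPKM, log2-fold change 1.40, limma adjusted p = 2.6e-05), the desaturase FADS1 (1.32, adjusted p = 4.7e-07) and the elongase ELOVL6 (1.1, adjusted p = 1.5e-06). L363 BtzR had 8 higher and 2 lower, where 5.66% of all tested genes were higher and 5.52% lower, 5 of the 8 being fatty acid targets and 0 of 9 other genes of the later sterol steps passing; FADS1 rose by 1.06 (adjusted p = 3.3e-06) and ABCG1 by 1.02 (adjusted p = 6.9e-04). The libraries labelled AMO1 CfzR had 9 higher and 0 lower against L363 WT (3.52% and 3.4% of all tested genes), with FADS1 (1.56, adjusted p = 5.5e-08) and ACSS2, which makes acetyl-CoA from acetate (1.09, adjusted p = 0.0246), past the fold. Against AMO1 WT they had 17 higher and 14 lower (26.8% and 30.9% of all tested genes), and FADS1 changed by -2.97 (adjusted p = 2.1e-12), the sign again depending on the reference. ARH-77 BtzR had 1 higher and 4 lower of 41, near the 5.98% and 7.6% of all tested genes.

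**Figure D4:**
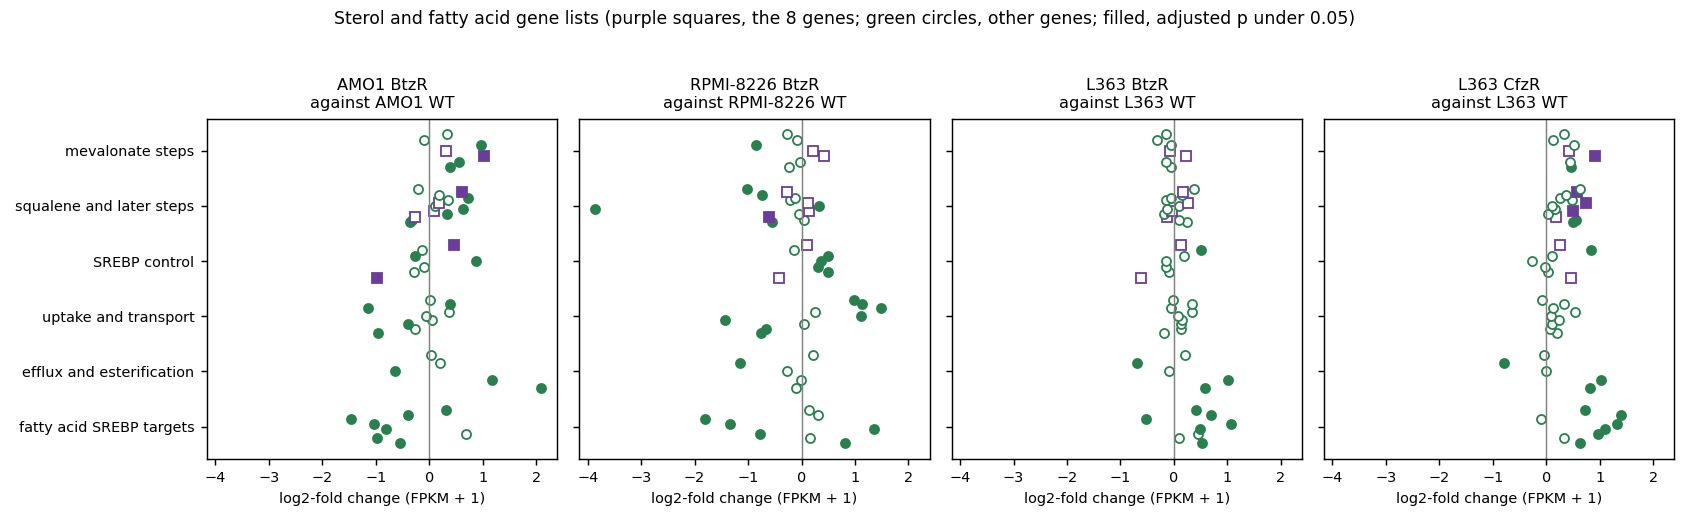
Log2-fold change of FPKM + 1 (horizontal axis) of the genes of 6 sterol and fatty acid lists in 4 comparisons; squares are the 8 genes, circles the other genes, and filled symbols passed an adjusted p of 0.05. The fatty acid targets of SREBP lie mostly left of 0 in AMO1 BtzR (6 of 8 lower past the test) and mostly right of it in L363 CfzR (6 of 8 higher), and HSD17B7 is the point at -3.86 in RPMI-8226 BtzR.

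A later sterol enzyme gave the largest change of any listed gene in RPMI-8226. HSD17B7, a sterol ketone reductase, read 26.16 and 28.39 FPKM in WT and 0.98 and 0.91 FPKM in BtzR (log2-fold change -3.86, limma adjusted p = 1.5e-10). Near-identical copies of this gene exist in the genome and could share its reads, so the value is uncertain. SCARB1, a lipoprotein receptor, rose in the same cells from 66.84 and 60.01 FPKM to 189.27 and 170.32 FPKM (log2-fold change 1.49, adjusted p = 1.5e-07). The other lines did not share this rise. SCARB1 read 25.92 and 28.48 FPKM in AMO1 BtzR against 67.1 and 56.03 FPKM in WT. It read 39.66 and 42.64 FPKM in ARH-77 BtzR against 62.58 and 51.05 FPKM in WT, and L363 BtzR overlapped L363 WT. In the WT lines SC5D, a late desaturase, was lower in myeloma lines than in ARH-77 (-2.45, adjusted p = 1.5e-10), and the lysosomal cholesterol carrier NPC2 was higher (2.43, adjusted p = 1.0e-07).

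Genes outside the set that followed a member most closely were sought by Pearson's r over the 10 group means of log2(FPKM + 1), as a description. FDFT1 was followed by FBXO5 (0.975), ACAT2 (0.97), itself a gene of the mevalonate list, and CCT4 (0.97). LSS was followed by ERBB3 (0.832) and SCD (0.819), the stearoyl-CoA desaturase and one of the listed fatty acid targets. DHCR7 was followed by PGD (0.962), HMGCS1 by PLA2G4C (0.959), INSIG1 by GSTA4 (0.963), IDI1 by CCT3 (0.948), SREBF2 by PTGES2 (0.897) and SQLE by OTUD1 (0.866). Some of these were at or near 0 FPKM in part of the groups, such as PLA2G4C with group means from 0.09 to 3.04 FPKM. For the mean of the 8 standardised profiles AGPAT2 came first (0.863).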

How the data were processed

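RNA from flash-frozen cell pellets was made into libraries and sequenced on a BGISEQ-500 by a service provider. The authors deposited 1 FPKM value per gene and library; the submitters' processing notes name HISAT2 2.0.4, Bowtie2 2.2.5 and RSEM 1.2.12, without their roles, and the genome build is not given in the sources used here. FPKM values carry no read depth, so no counting intervals can be given, and scaling by each library's own total lets a few abundant genes shift the rest.

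Genes were tested with limma 3.58.1 (R 4.3.3) on log2(FPKM + 1), which understates changes of low genes, for 13089 genes, those averaging 1 FPKM or more over the replicates of any group. All 20 libraries of the 10 groups entered 1 fit with a mean-variance trend and 10 residual degrees of freedom, and p-values were adjusted over all tested genes by Benjamini-Hochberg. A gene passed at an adjusted p under 0.05, and was past the fold at a log2-fold change of 1 or more in size. An exact permutation test of 2 against 2 cannot go below p = 0.33. The fit was tested on simulated data for AMO1 BtzR against AMO1 WT, with 100 genes changed by 0.5 and 100 by 1 on the log2 scale. It recovered 55 of the former and 97 of the latter, and called 0.031% of unchanged genes. Changes near 0.5 can thus be missed. The simulation changed far fewer genes than the 6702 that passed in this comparison. Alternatives were other pseudocounts, filters and scalings, no trend, a replicate block, the compared libraries alone and each library left out. The block was not used because same-numbered replicates did not deviate together in every comparison.

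The 8 members and the lists were chosen with earlier results of these data known. All members are named; of the 42 other listed genes, those past test and fold are named, at most 3 per comparison by absolute change (1 such result is not reported here), and likeness to a member was ranked among genes whose group means spanned at least 1 log2 unit. Exons of HMGCS1, IDI1, FDFT1, LSS and SREBF2 overlap a gene on the opposite strand in GENCODE, and strand use in counting is not given in the sources used here, so reads of the 2 cannot be told apart. Python 3.11.15, pandas 2.3.3, numpy 2.4.6 and matplotlib 3.10.9 were used.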

Additional observations from a re-analysis of the deposited data

Results flagged for a closer look

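The bortezomib effect on SQLE differed between the 4 lines (moderated F test in limma, adjusted p = 4.1e-04), from a log2-fold change of 0.62 in AMO1 over 0.17 in L363 to -0.28 in the RPMI-8226 line and -0.70 in ARH-77. That last value rests on WT libraries that differ, at 139.80 and 228.74 FPKM, and it was -0.34 without the higher of these. Groups of 2 libraries allow no test for a single outlying sample.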

How the results depend on the processing

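Of 2440 member values recomputed under the alternatives, 2220 kept their direction and their side of the threshold, 108 lost a call, 85 gained one and 27 changed sign. Each of the following counts is of members past the test, and causes were not tested. With the compared libraries alone the count went from 0 to 2 in L363 BtzR, from 1 to 0 in ARH-77 BtzR and from 2 to 6 for AMO1 CfzR against L363 WT. That last count was 0 without a filter, with TPM scaling and with quantile normalization, and L363 CfzR went from 4 to 2 without a filter and with quantile normalization. Chosen after seeing the data, leaving out the RPMI-8226 BtzR group gave 1 for L363 BtzR, and leaving out the ARH-77 WT group gave 2 for RPMI-8226 BtzR and 4 for AMO1 CfzR against L363 WT. Also chosen after seeing the data, the alternatives for L363 CfzR against BtzR moved its count from 2 to 0 without a filter and with quantile normalization, to 4 with the replicate block and without the RPMI-8226 BtzR group, and to 6 with the compared libraries alone and without the ARH-77 WT group. Over all genes, the compared libraries alone gave 2646 for 1464 calls in L363 BtzR, 96 for 1778 in ARH-77 BtzR, 532 for 803 in L363 CfzR against BtzR and 1527 for 906 in AMO1 CfzR against L363 WT.

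Changes of sign were near 0: FDFT1 in L363 BtzR was 0.019 with TPM scaling and 0.018 with quantile normalization (-0.04 as reported), and in ARH-77 BtzR HMGCS1 was 0.035, IDI1 0.024 and SREBF2 0.023 with quantile normalization and INSIG1 -0.004 with TPM scaling. Without 1 library at a time, the following uncalled changes took both signs. In AMO1 BtzR, FDFT1 ran from -0.011 to 0.166, and in AMO1 CfzR against AMO1 WT SQLE ran from -0.038 to 0.171. In RPMI-8226 BtzR, HMGCS1 ran from -0.104 to 0.941, SREBF2 from -0.013 to 0.236 and INSIG1 from -1.02 to 0.182. In ARH-77 BtzR, HMGCS1 ran from -0.321 to 0.268, IDI1 from -0.331 to 0.252, FDFT1 from -0.565 to 0.084, LSS from -0.418 to 0.226, SREBF2 from -0.24 to 0.199 and INSIG1 from -0.361 to 0.44. In the mean bortezomib effect, FDFT1 ran from -0.099 to 0.063 and SQLE from -0.136 to 0.041. In the WT myeloma lines against ARH-77, LSS ran from -0.215 to 0.429, DHCR7 from -0.128 to 0.312 and SREBF2 from -0.304 to 0.135. In the same fits, members past the test ran from 2 to 6 for AMO1 BtzR, 0 to 1 for L363 BtzR, 0 to 5 for L363 CfzR, 1 to 3 for RPMI-8226 BtzR, 1 to 4 for ARH-77 BtzR, 2 to 6 for AMO1 CfzR against AMO1 WT, 0 to 4 against L363 WT, 3 to 6 for the mean bortezomib effect, 4 to 6 for the WT lines, 0 to 6 for L363 CfzR against BtzR and 1 to 7 for the F test; a lone remaining sample is assumed to vary like the other groups.

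The labels number replicates, but pairing was not used: the correlation of same-numbered deviations was -0.00554 for AMO1 BtzR and 0.12 to 0.245 elsewhere. With the replicate block, members past the F test went from 1 to 3, and INSIG1 passed in AMO1 CfzR against AMO1 WT (adjusted p = 0.0494). Only FPKM is given, so what read depth limits cannot be stated.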
